A study of Mus musculus with 40 samples.

Results

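The core circadian clock genes of mouse liver were examined for binding of the corepressors SMRT and NCoR and of their enzyme partner HDAC3. The set held 10 of the 21938 protein-coding genes in the annotation. These were the activators Arntl (which encodes BMAL1), Clock and Npas2, and the repressors Per1, Per2, Per3, Cry1, Cry2, Bhlhe40 (DEC1) and Bhlhe41 (DEC2). Members were chosen by name. A peak was counted for a gene when its centre lay inside the gene or within 50 kb of either end, a stretch called the window here (mm10 build, GENCODE annotation). The windows held 62 of 35138 NCoR peaks, 21 of 10654 SMRT peaks and 29 of 14462 HDAC3 peaks, and no peak fell into the windows of more than 1 member.

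The study used chromatin immunoprecipitation followed by sequencing (ChIP-seq) to map where proteins sat on DNA in livers of mice with or without the transcriptional repressor BCL6. The 3 lists analysed were called from livers of ad libitum fed male C57BL/6 mice of genotype Bcl6 fl/fl, in which the floxed Bcl6 alleles had not been deleted and which served as the WT controls. Each list pooled 3 ChIP libraries, so 9 of the 40 samples in the series were pooled in the lists. The other 31 were not analysed here. They include an input library labelled for fed WT SMRT, NCoR and HDAC3 together, and the authors called peaks against input. The lists gave positions only, with no height, score or value per library. No difference between animals, genotypes or feeding states could therefore be measured. The age of the animals and the time of day of harvest were not given in the sources used here. Binding to clock genes can vary over the day, so the positions stand for an unstated phase.

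The clock runs as a feedback loop of transcription. BMAL1 pairs with CLOCK, or with its relative NPAS2, and binds E-boxes (CACGTG) at its targets, which include the Per and Cry genes and both DEC genes. PER and CRY proteins return to the nucleus as a complex that inhibits BMAL1 and CLOCK, and DEC1 and DEC2 compete for the same E-boxes. In a second loop the orphan nuclear receptors REV-ERB and ROR compete for elements that hold TAGGTCA, among them those at the Arntl promoter, and REV-ERBs repress there by recruiting NCoR and HDAC3. In liver this clock times glucose, lipid and bile acid metabolism. SMRT and NCoR are related scaffolds that bind and switch on HDAC3, an enzyme that removes acetyl groups from histones.

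NCoR was listed at all 10 core clock genes, against 72.3% of all protein-coding genes with at least 1 NCoR peak in the window. SMRT was listed at 8 of the 10 genes, Per1 and Per3 having none, against 43.1% of all genes. HDAC3 was listed at 9, Per3 having none, against 52.1%. Sites where the centres of both other proteins lay within 200 bp of an NCoR centre, called shared sites, were present at 8 genes, against 39.2% of all genes. Among the 15868 genes that had any NCoR peak in the window, 54.2% had a shared site.

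The 10 genes held a median of 7 NCoR peaks each (range 1 to 10), whereas the median over all protein-coding genes was 2. Their median was 2.5 SMRT peaks, 3 HDAC3 peaks and 2 shared sites, against 0, 1 and 0 over all genes. The windows differed in length as well, with a median of 142 kb for the clock genes and 117 kb for all genes. Per 100 kb of window the clock genes held a median of 4.11 NCoR peaks (range 0.709 to 6.90), and all genes held 1.76. The list of all genes includes genes that are silent in liver.

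**Figure D1:**
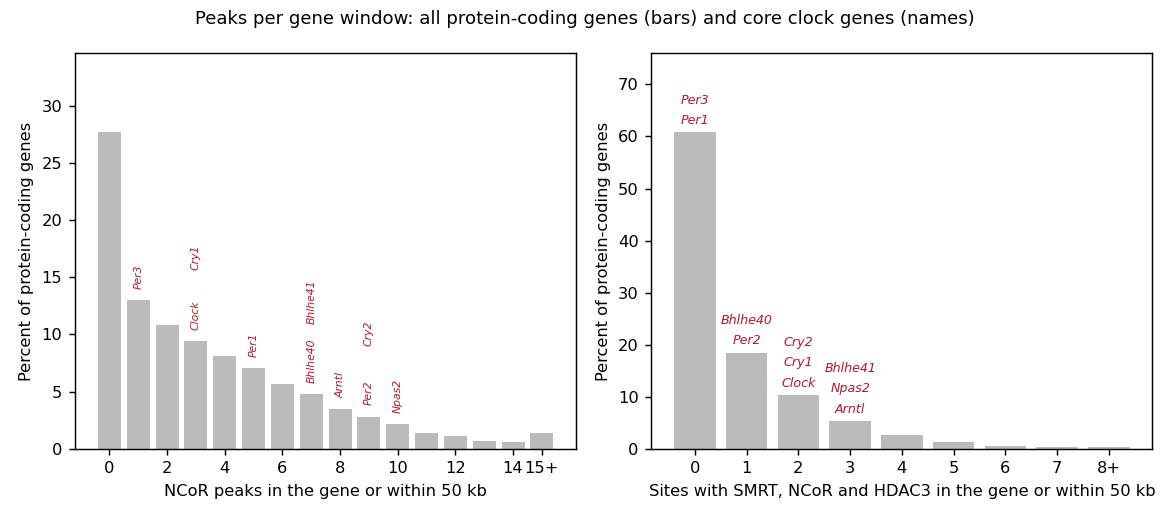
Percent of all 21938 protein-coding genes (grey bars, y axis) by the number of NCoR peaks (left, x axis) or shared sites (right, x axis) in the gene or within 50 kb, with the names of the core clock genes set above the bar of their own count. The names run from 1 NCoR peak at Per3 to 10 at Npas2, and from 0 shared sites at Per1 and Per3 to 3 at Arntl, Npas2 and Bhlhe41, where all genes had a median of 2 NCoR peaks and 0 shared sites.

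Of the 62 NCoR peaks, 17 were shared sites (27.4%, exact 95% interval 16.9 to 40.2), against 24.9% of all NCoR peaks. A further 11 had HDAC3 but not SMRT (17.7%, 9.20 to 29.5), against 14.8%, and 4 had SMRT but not HDAC3 (6.45%, 1.79 to 15.7), against 4.16%. The remaining 30 were NCoR only (48.4%, 35.5 to 61.4), against 56.1%. Each share over all NCoR peaks lay inside the interval of the clock genes, so the mix of classes at these genes was not distinguishable from that of the whole list by counting error. Intervals here cover counting error only, and peaks near 1 gene are not independent of each other.

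Every SMRT peak in the windows had an NCoR partner. Among the 21, 17 (81.0%, 58.1 to 94.6) lay at shared sites and 4 at sites with NCoR but not HDAC3, and 81.9% of all SMRT peaks were at shared sites. Of the 29 HDAC3 peaks, 17 (58.6%, 38.9 to 76.5) lay at shared sites, against 60.4% of all HDAC3 peaks, 11 coincided with NCoR only, and 1 had no partner. That lone HDAC3 peak, at chr11:69073448-69073660, was in the Per1 window and lay nearest to the start of Tmem107. At the 17 shared sites the SMRT centre was a median of 14.0 bp from the NCoR centre (range 2 to 141) and the HDAC3 centre a median of 31.0 bp (range 1 to 89), against 23.0 and 21.0 bp over all 8739 shared sites.

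Each peak was then assigned by the closest transcription start site (TSS) of a protein-coding gene. A gene can have several annotated starts. Distances from a start given below are from the nearest one, unless the 5′ end of the gene is named. By this rule 44 of the 62 NCoR peaks, 15 of the SMRT peaks and 17 of the HDAC3 peaks belonged to the clock gene itself. The other 18 NCoR peaks had a neighbouring gene nearer. All 10 clock genes kept at least 1 NCoR peak, against 49.1% of all genes, and 7 kept a shared site, against 20.9%. The shares over all genes take assigned peaks at any distance, whereas the clock counts keep only those in the windows. Among the 44 peaks, 12 were shared sites (27.3%, 15 to 42.8), 5 had HDAC3 and NCoR, 3 had SMRT and NCoR, and 24 were NCoR only.

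**Figure D2:**
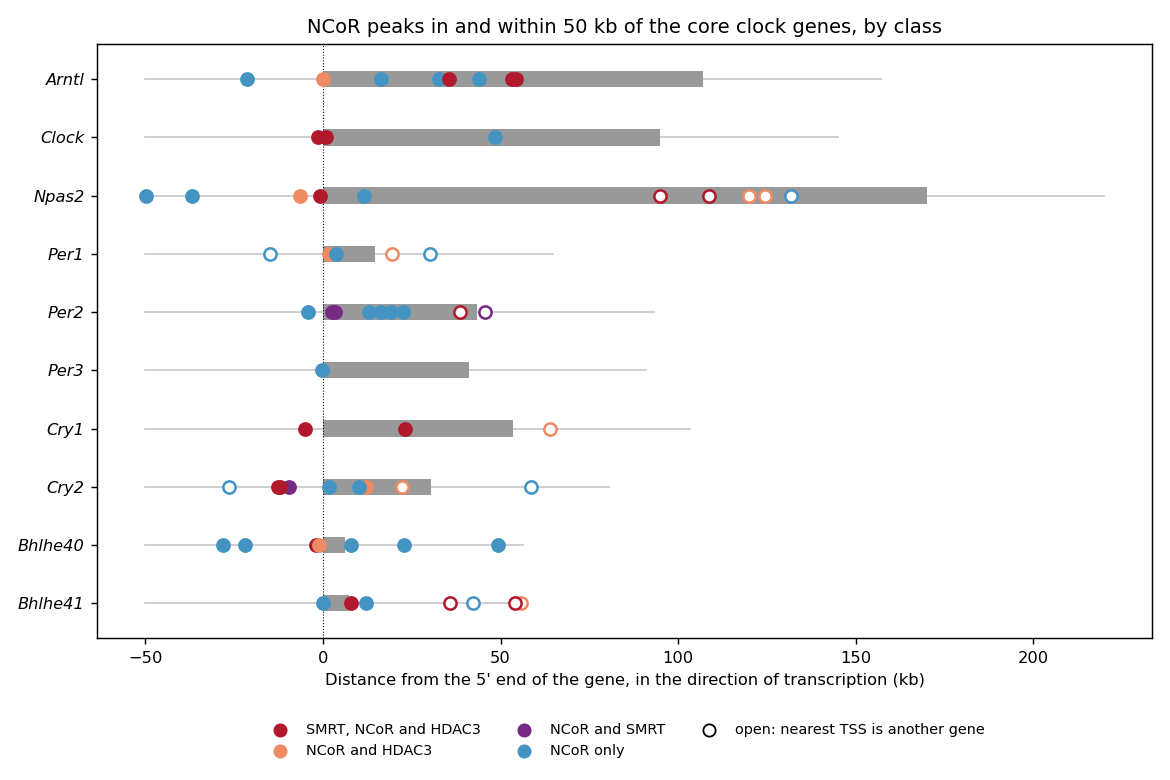
Position of each of the 62 NCoR peaks (points) along the 10 core clock genes, in kb from the 5′ end of the gene in the direction of transcription (x axis), with genes as grey bars, the windows as thin lines and colour giving the class of the peak. Open points have the TSS of another gene nearer. Shared sites (red) lie upstream of Clock, Npas2, Cry1, Cry2 and Bhlhe40. They also lie inside Arntl, Clock, Npas2, Per2 and Cry1 and past the 3′ end of Bhlhe41, while Per1 and Per3 have none.

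The activators and repressors both had shared sites. Arntl, Clock and Npas2 together held 21 NCoR peaks, of which 8 were shared sites (38.1%, 18.1 to 61.6), 4 had NCoR and HDAC3, 9 were NCoR only and 0 had NCoR and SMRT without HDAC3. The 7 repressors held 41 NCoR peaks, of which 9 were shared sites (22.0%, 10.6 to 37.6) and 21 were NCoR only (51.2%, 35.1 to 67.1). The intervals of the activators and repressors overlapped. By nearest TSS the shares were 37.5% of 16 peaks at the activators (15.2 to 64.6) and 21.4% of 28 at the repressors (8.30 to 41.0). NCoR peaks of any class numbered 3.13 per 100 kb of window at the activators and 4.57 at the repressors.

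Arntl encodes BMAL1, the partner that every activator dimer of the clock needs. The gene lies on the plus strand at chr7:113207465-113314126. Its window held 8 NCoR, 3 SMRT and 4 HDAC3 peaks, and 13.6% of all genes held as many NCoR peaks. All 8 NCoR peaks had an Arntl start as the nearest TSS. The peak at the promoter lay 25 bp downstream of an annotated start, in a 5′ UTR exon, and had HDAC3 42 bp away, while the nearest SMRT peak was 35317 bp away. The 3 shared sites lay in introns, 8227, 26115 and 27298 bp downstream of the nearest Arntl start, and the last 2 were 1183 bp apart. The SMRT centres at these sites were 49, 22 and 3 bp from the NCoR centre, and the HDAC3 centres were 89, 4 and 28 bp away.

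Clock encodes the DNA-binding partner of BMAL1, which also carries acetyltransferase activity. The gene is on the minus strand at chr5:76209868-76304792 and its window held 3 NCoR, 2 SMRT and 2 HDAC3 peaks, a count of NCoR peaks that 48.5% of all genes reached. Both shared sites sat close to an annotated start of the gene and were 2114 bp apart. The first lay 1326 bp upstream of the 5′ end. The second was in an intron, 788 bp from the 5′ end and 544 bp downstream of a further annotated start. The peak in the intron was also at the promoter of the annotated gene Gm7467. The third NCoR peak, 17546 bp downstream of the nearest Clock start, was 47587 bp from the nearest SMRT peak and 47517 bp from the nearest HDAC3 peak.

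Npas2 encodes a relative of CLOCK that can take its place beside BMAL1. The gene is on the plus strand at chr1:39193731-39363236 and had the most NCoR peaks of the 10, with 10 NCoR, 3 SMRT and 6 HDAC3 peaks in its window. As many NCoR peaks were held by 7.31% of all genes, but its window, at 270 kb, was also the longest of the 10, and its density of 3.71 NCoR peaks per 100 kb was below the median of the clock genes. A shared site lay 1345 bp upstream of the annotated start, with SMRT 52 bp and HDAC3 31 bp from the NCoR centre. Measured from the 5′ end of the gene, this site was at -864 bp. A peak 6963 bp upstream of the annotated start had HDAC3 9 bp away. The other 2 shared sites and 3 further NCoR peaks were in Npas2 introns, 94874 to 131711 bp from the 5′ end of the gene. These 5 peaks counted for Rpl31, a ribosomal protein gene, under the nearest TSS rule although they lay inside Npas2.

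The NCoR peaks nearest the start among the shared sites assigned to each activator are printed to show the DNA beneath them, with matches to the searched motifs in the central 200 bp in capitals, here and in the other peaks printed; the ends were not searched. Sequences are the plus strand of GRCm38, 229 bases from the first to the last listed position.
Arntl, chr7:113242736-113242964: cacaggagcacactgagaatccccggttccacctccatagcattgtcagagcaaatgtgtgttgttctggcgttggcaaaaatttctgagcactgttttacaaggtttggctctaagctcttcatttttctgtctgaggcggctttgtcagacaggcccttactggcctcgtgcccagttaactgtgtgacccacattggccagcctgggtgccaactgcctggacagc
Clock, chr5:76303890-76304118: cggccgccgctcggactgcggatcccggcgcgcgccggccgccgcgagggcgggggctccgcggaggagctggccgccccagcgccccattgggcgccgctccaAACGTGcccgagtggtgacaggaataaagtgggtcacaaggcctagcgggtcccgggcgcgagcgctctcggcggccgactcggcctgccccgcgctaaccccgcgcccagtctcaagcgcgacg
Npas2, chr1:39192753-39192981: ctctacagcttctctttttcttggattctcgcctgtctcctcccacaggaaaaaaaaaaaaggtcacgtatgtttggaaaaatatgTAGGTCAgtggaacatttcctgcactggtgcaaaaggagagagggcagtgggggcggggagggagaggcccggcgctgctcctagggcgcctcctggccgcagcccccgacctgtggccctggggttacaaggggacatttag
The Clock sequence held the E-box-like string in its reverse complement near the peak centre, the Npas2 sequence held the ROR/REV-ERB string, and the Arntl sequence held none of the 12 strings in its central 200 bp.

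The period genes encode the PER scaffold proteins of the inhibitory complex and had few shared sites. Per1, Per2 and Per3 together held 15 NCoR peaks, of which 1 was a shared site (6.67%, 0.169 to 31.9), 2 had NCoR and HDAC3, 3 had NCoR and SMRT, and 9 were NCoR only (60.0%, 32.3 to 83.7). None of the 10 NCoR peaks assigned to a period gene was a shared site (0%, upper limit 30.8%). The 24.9% of all NCoR peaks that were shared sites lay inside both intervals.

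The listed partners of NCoR differed between the members of this group, on few peaks each. Per1, an early-responding period gene that is also induced by light and glucocorticoids, is on the plus strand at chr11:69095217-69109960. Its window held 5 NCoR peaks, 3 HDAC3 peaks and 0 SMRT peaks, and the nearest SMRT peak to any of them was 215133 bp away. The NCoR peak 1847 bp downstream of the first Per1 start had HDAC3 54 bp away. The peak 120 bp upstream of a further annotated start, which lies inside the gene, was NCoR only. The remaining peaks were nearest to Vamp2, Hes7 and Aloxe3, and the one upstream of Hes7 had HDAC3.

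Per2 encodes a period protein needed for sustained rhythms, and lies on the minus strand at chr1:91415982-91459324. Its window held 9 NCoR and 4 SMRT peaks but 1 HDAC3 peak, whereas the Per1 window held HDAC3 but no SMRT peak. NCoR only was the largest class at both, with 5 of 9 NCoR peaks at Per2 and 3 of 5 at Per1. Over all NCoR peaks 4.16% had SMRT without HDAC3 and 14.8% had HDAC3 without SMRT. The contrast between Per1 and Per2 rests on few peaks and was not tested. NCoR and SMRT without HDAC3 were listed at 3 sites, out of 4 such sites at all 10 genes. Of these, 2 lay in an intron 2672 and 3336 bp downstream of the start, 664 bp apart, with SMRT 32 and 30 bp from the NCoR centres and the nearest HDAC3 peak 35822 and 35158 bp away. The third was 477 bp upstream of Hes6, and its nearest HDAC3 peak was 7131 bp away. The shared site in the Per2 window lay in a Per2 intron but nearer to the start of Hes6, and its SMRT centre was 141 bp from the NCoR centre, the widest spacing among the 17 shared sites. It was no longer a shared site when centres had to lie within 100 bp. NCoR only was listed at 4 further intronic positions, 13108 to 22572 bp downstream, and 4198 bp upstream.

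Per3 is the period gene least needed for rhythm. It is on the minus strand at chr4:151003652-151044665 and had the fewest peaks of the 10. Its window held 1 NCoR peak and 0 SMRT and HDAC3 peaks. The peak lay 238 bp upstream of the start, at the Per3 promoter and inside an intron of Camta1, and the nearest SMRT and HDAC3 peaks were 130216 and 130200 bp away. At 0.709 per 100 kb, the density of NCoR peaks there was below the median of 1.76 over all genes, as was the 1.54 at Clock.

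The NCoR peak nearest the start is printed for each period gene, since none had a shared site assigned to it.
Per1, chr11:69098714-69098942: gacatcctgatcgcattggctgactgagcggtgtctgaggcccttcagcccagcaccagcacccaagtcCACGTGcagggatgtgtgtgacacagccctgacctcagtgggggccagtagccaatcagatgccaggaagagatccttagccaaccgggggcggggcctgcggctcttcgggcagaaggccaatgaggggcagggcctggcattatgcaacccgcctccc
Per2, chr1:91456538-91456766: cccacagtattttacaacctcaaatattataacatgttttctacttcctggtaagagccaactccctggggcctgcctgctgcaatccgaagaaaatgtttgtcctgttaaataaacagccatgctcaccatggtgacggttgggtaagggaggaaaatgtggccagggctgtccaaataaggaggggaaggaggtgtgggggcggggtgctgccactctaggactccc
Per3, chr4:151044789-151045017: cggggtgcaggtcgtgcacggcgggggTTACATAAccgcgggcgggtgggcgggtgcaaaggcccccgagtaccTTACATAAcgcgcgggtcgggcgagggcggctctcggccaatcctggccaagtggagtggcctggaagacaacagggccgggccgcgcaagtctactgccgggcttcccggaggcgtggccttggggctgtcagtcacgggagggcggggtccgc
In the central 200 bp the Per1 peak held an E-box and the Per3 peak held the D-box string at 2 positions, 47 bp apart. The Per2 peak held none of the 12 strings there. Outside the searched bases, the Per1 sequence has a stretch near its end, in lower case, that matches both the D-box and the C/EBP strings.

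The cryptochromes encode the transcriptional inhibitors that act directly on the BMAL1 and CLOCK dimer. Cry1 and Cry2 together held 12 NCoR peaks, of which 4 were shared sites (33.3%, 9.92 to 65.1), 3 had NCoR and HDAC3, 1 had NCoR and SMRT, and 4 were NCoR only. Of the 8 that were assigned to a cryptochrome, 4 were shared sites (50%, 15.7 to 84.3). Both genes had 2 shared sites, but their surroundings differed. Cry1, on the minus strand at chr10:85131700-85185064, had 3 NCoR peaks. It was the only member with no peak of NCoR alone, a class that held 56.1% of all NCoR peaks. With 3 peaks Cry1 cannot be told apart from that share. Its shared sites lay 5120 bp upstream and 23149 bp downstream in an intron, and at both the SMRT and HDAC3 centres were within 18 bp of the NCoR centre. The remaining peak had HDAC3 and lay in an intron of Mterf2.

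Cry2 is on the minus strand at chr2:92403646-92434043 and had the highest density of the 10 genes, with 9 NCoR peaks or 6.90 per 100 kb. Both of its shared sites lay upstream, at 12003 and 12715 bp from the start and 712 bp apart. The peak 9462 bp upstream had SMRT 65 bp away while its nearest HDAC3 peak was 2540 bp away. Within the gene, HDAC3 but not SMRT was listed 12086 bp downstream and at a second intronic peak for which Mapk8ip1 had the nearest TSS. NCoR alone was listed 1581 and 10139 bp downstream. Intronic positions in this gene also overlapped the annotated gene D930015M05Rik.

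The sequences of the shared site nearest to each cryptochrome start are given, with the intronic shared site of Cry1 and the intronic NCoR peak of Cry2 because each held a clock motif at 2 positions.
Cry1 upstream, chr10:85190070-85190298: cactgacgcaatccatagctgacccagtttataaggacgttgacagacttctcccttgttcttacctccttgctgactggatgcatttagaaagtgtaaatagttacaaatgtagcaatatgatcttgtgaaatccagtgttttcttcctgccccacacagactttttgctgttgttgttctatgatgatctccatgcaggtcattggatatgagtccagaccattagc
Cry1 intron, chr10:85161801-85162029: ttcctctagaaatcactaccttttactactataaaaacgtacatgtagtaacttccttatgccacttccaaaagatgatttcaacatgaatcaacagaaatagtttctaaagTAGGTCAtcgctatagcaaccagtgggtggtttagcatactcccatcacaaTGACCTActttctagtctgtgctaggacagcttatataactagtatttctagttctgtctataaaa
Cry2 upstream, chr2:92445932-92446160: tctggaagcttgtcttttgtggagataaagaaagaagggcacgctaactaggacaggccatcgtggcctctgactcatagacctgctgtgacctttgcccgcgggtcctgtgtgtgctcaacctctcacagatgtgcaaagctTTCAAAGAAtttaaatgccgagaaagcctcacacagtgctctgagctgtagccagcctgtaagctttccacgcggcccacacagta
Cry2 intron, chr2:92423783-92424011: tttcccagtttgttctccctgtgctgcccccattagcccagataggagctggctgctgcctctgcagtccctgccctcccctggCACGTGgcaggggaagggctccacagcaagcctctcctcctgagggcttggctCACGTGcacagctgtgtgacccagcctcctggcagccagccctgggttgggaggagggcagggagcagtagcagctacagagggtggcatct
In the Cry1 intron the ROR/REV-ERB strings faced each other on opposite strands and started 51 bp apart. In the Cry2 intron the E-boxes started 53 bp apart. The Cry2 upstream site held a BCL6/STAT string, 33 bp from the NCoR centre.

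The DEC genes encode repressors that bind E-boxes directly. Bhlhe40 and Bhlhe41 are the shortest of the 10 genes, at 6.30 and 7.32 kb, and together held 14 NCoR peaks or 6.55 per 100 kb of window. Of these peaks 4 were shared sites (28.6%, 8.39 to 58.1), 2 had NCoR and HDAC3, and 8 were NCoR only (57.1%, 28.9 to 82.3).

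Bhlhe40, on the plus strand at chr6:108660629-108666925, had 7 NCoR peaks, all assigned to it and 0 of them inside the gene. The shared site was 1997 bp upstream of the start and the peak with NCoR and HDAC3 was 1078 bp upstream, 919 bp from it. These peaks also lay within an intron of the annotated gene 0610040F04Rik. The other 5 were NCoR only and lay between 27984 bp upstream and 49171 bp downstream.

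Bhlhe41, on the minus strand at chr6:145858243-145865558, also had 7 NCoR peaks, with 3 SMRT and 4 HDAC3 peaks. Its promoter peak lay 17 bp downstream of the start and was NCoR only. The shared site assigned to Bhlhe41 lay past the 3′ end of the gene, with SMRT 9 bp and HDAC3 39 bp away. It was 7699 bp downstream of the nearest annotated start and 7955 bp from the 5′ end. The other 2 shared sites, with 2 further NCoR peaks, were nearest to Rassf8.

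The shared site nearest to each DEC gene start is shown, with the NCoR-only peaks that held an E-box. For the Bhlhe41 promoter only the 97 bases outside the annotated transcript are printed.
Bhlhe40 upstream, chr6:108658518-108658746: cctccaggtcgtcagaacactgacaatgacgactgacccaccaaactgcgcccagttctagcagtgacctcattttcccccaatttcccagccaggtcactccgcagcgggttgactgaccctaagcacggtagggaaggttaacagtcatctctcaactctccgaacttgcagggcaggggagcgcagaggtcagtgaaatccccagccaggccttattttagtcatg
Bhlhe40 far upstream, chr6:108638449-108638677: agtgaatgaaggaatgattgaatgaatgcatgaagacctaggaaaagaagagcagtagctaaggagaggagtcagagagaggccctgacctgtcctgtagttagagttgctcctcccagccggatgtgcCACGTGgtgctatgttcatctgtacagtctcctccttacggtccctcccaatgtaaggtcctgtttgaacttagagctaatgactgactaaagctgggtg
Bhlhe41 downstream, chr6:145857489-145857717: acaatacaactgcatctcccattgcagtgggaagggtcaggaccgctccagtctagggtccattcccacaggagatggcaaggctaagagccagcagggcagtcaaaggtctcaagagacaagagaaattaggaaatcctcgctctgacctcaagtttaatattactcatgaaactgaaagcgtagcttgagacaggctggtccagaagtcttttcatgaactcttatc
Bhlhe41 promoter, chr6:145865559-145865655: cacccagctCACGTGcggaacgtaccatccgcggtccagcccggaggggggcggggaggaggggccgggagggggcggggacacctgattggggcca
The shared site printed for each DEC gene held none of the 12 strings in its central 200 bp.

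**Figure D3:**
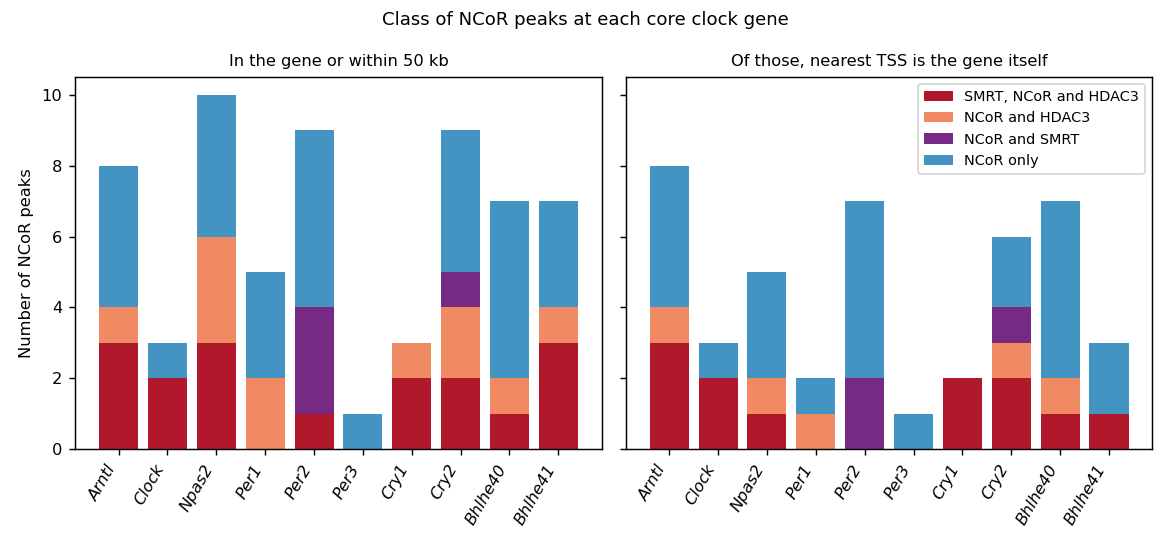
Number of NCoR peaks (y axis) at each of the 10 core clock genes, stacked by class, for all peaks in the gene or within 50 kb (left) and for those whose nearest TSS is the gene itself (right). Per2 is the gene with most NCoR and SMRT sites (3), Per1 and Per3 have no shared site, and the right panel falls most at Npas2 (10 to 5) and Bhlhe41 (7 to 3).

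NCoR was also listed at promoters of the clock genes. A promoter was the stretch that begins 1000 bp before an annotated TSS and ends 100 bp after it. An NCoR peak was listed at the own promoter of 4 of the 10 genes, Arntl, Per1, Per3 and Bhlhe41, against 16.9% of all genes. At Arntl it had HDAC3, at the other 3 it was NCoR only, and 0 of the 4 was a shared site. Over all 3659 NCoR peaks at promoters of protein-coding genes 68.5% were NCoR only and 13.9% were shared sites, so 4 peaks are too few to show a difference. The count depends on where a promoter ends and on the start used. At Clock, shared sites 544 bp downstream and 1326 bp upstream lay outside these limits. So did those 1345 bp upstream at Npas2 and 1997 bp upstream at Bhlhe40. All were within 2000 bp of the gene's own start. Measured from the 5′ end of the gene, the Npas2 site was at -864 bp, inside the limit of 1000 bp. Counting promoters of any annotated gene, 9 of the 62 peaks (14.5%, 6.86 to 25.8) were at a promoter, 34 (54.8%, 41.7 to 67.5) were elsewhere in a gene and 19 (30.6%, 19.6 to 43.7) lay between genes, against 12.8%, 57.1% and 30.0% of all NCoR peaks.

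Motifs were looked for as fixed strings on either strand in the central 200 bp of each NCoR peak. The E-box CACGTG was present in 4 of the 62 peaks (6.45%, 1.79 to 15.7), against 4.16% of all NCoR peaks. The E-box-like string CACGTT was in 3 peaks (4.84%, 1.01 to 13.5), against 3.07%. The ROR/REV-ERB string TAGGTCA was in 6 peaks (9.68%, 3.63 to 19.9), against 5.60%. The D-box TTATGNAA, bound by the PAR bZIP factors and by NFIL3, was in 1 peak (1.61%, 0.0408 to 8.66), against 5.44%. At least 1 of these 4 strings was in 14 peaks (22.6%), against 17.2% of all NCoR peaks. For each of the 4 strings the share over all NCoR peaks lay within the interval.

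All 4 peaks with an E-box were NCoR only, and all were at repressor genes, whose windows held 41 of the 62 NCoR peaks. These 4 lay 120 bp upstream of the internal Per1 start, in the Cry2 intron, 22066 bp upstream of Bhlhe40 and at the Bhlhe41 promoter. Their sequences are printed above. None of the 17 shared sites held an E-box. Over all NCoR peaks the E-box was in 4.45% of NCoR-only peaks and in 3.73% of shared sites. With 4 such peaks at the clock genes no difference between classes, or between activators and repressors, could be detected.

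The ROR/REV-ERB string lay at peaks with and without HDAC3. Of the 6 peaks that held it, 3 were shared sites (2 at Npas2 and the Cry1 intron), 2 had NCoR and HDAC3 (an Npas2 intron and the Arntl promoter) and 1, in the Per1 window upstream of Aloxe3, was NCoR only. Over all NCoR peaks the string was in 6.33% of shared sites, 6.54% of NCoR and HDAC3 peaks and 5.18% of NCoR-only peaks. With 6 such peaks at the clock genes no difference between classes could be detected. The sites outside the sequences above are shown with 10 bases on either side, written in the direction of the motif, because full ROR and REV-ERB elements have an A and T rich stretch before the string.
Arntl promoter, chr7:113207531-113207557, plus strand: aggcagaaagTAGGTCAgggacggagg
Npas2 intron, shared site, chr1:39288574-39288600, plus strand: ttactcaaacTAGGTCAgtgccacaga
Npas2 intron, NCoR and HDAC3, chr1:39318103-39318129, plus strand: tggttccaaaTAGGTCAccctcagcaa
Per1 window, chr11:69125506-69125532, minus strand: gtccaagataTAGGTCAcaaggaccag
Of the 6 bases before the string, 4 or 5 were A or T in each of the 7 matches at clock genes, the Npas2 upstream site and both Cry1 sites included. Over all 2079 matches in NCoR peaks 42.6% had at least 4. The cut of 4 is the lowest value among these same 7 matches, which lie in 6 peaks. The 2 figures therefore cannot show a difference, and none was tested.

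For strings of other liver factors, too, the shares over all NCoR peaks lay within the intervals of the clock genes. The C/EBP string TTGCNNAA was in 10 peaks (16.1%, 8.02 to 27.7), against 19.1%, and 5 of these were shared sites. The BCL6/STAT string TTCNNNGAA was in 4 peaks (6.45%, 1.79 to 15.7), against 7.10%, at Npas2, Per2, Cry2 and Bhlhe40. The HNF4 half-site CAAAGTCCA was in 3 peaks (4.84%, 1.01 to 13.5), against 2.09%, and the FOX string TGTTTAC was in 3 (4.84%, 1.01 to 13.5), against 7.74%. The cAMP response element TGACGTCA, the glucocorticoid receptor element AGNACANNNTGTNCT, the DR1 element (AGGNCA repeated after a spacer of 1 base) and the HNF6/CUX2 string TATCGAT were in 0 of 62 peaks, which allows a share of up to 5.78%, against 0.552%, 0.165%, 1.99% and 0.800% of all NCoR peaks. With all 12 strings together, 29 peaks (46.8%) held at least 1, against 45.1%.

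**Figure D4:**
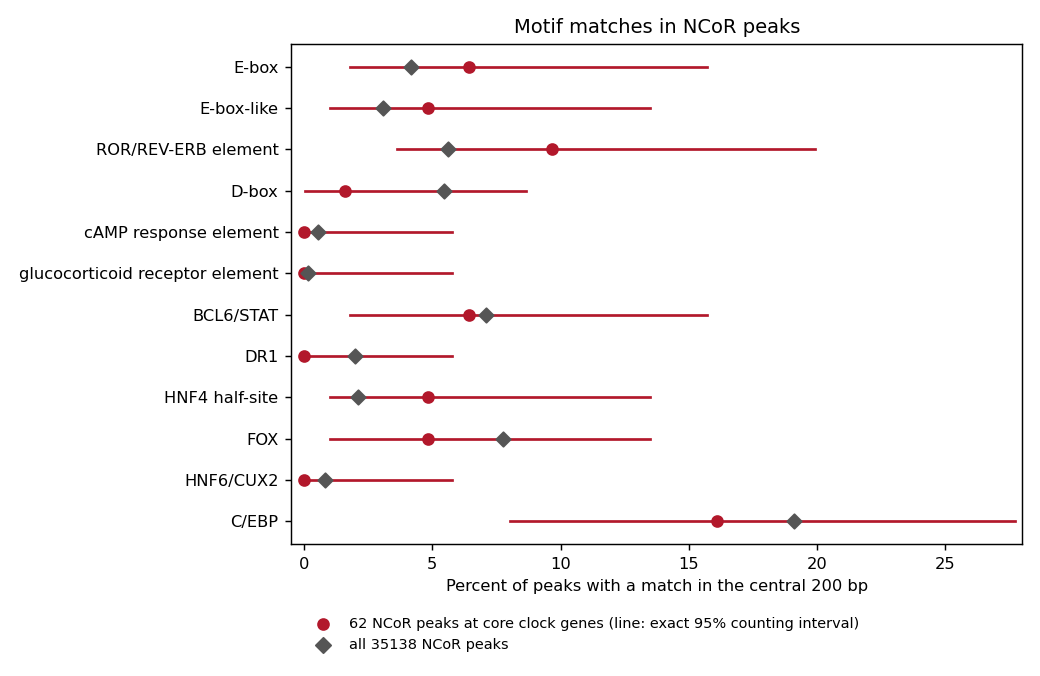
Percent of NCoR peaks that held each of 12 motif strings in their central 200 bp (x axis), for the 62 peaks at the core clock genes (red points, with exact 95% counting intervals as lines) and for all 35138 NCoR peaks (grey diamonds). Every grey diamond lies within the red line of its motif, and the ROR/REV-ERB string stands at 9.68% against 5.60%.

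Promoter sequence from RefSeq (GRCm38.p6, 300 bases around each start) was given for 8 of the 10 genes, with Per2 and Bhlhe40 not among them. The E-box was present in the promoters of Bhlhe41, Cry1 and Per1, against 7.15% of 32851 promoters, and of these genes Bhlhe41 and Per1 had an NCoR peak at their own promoter. The E-box-like string was in those of Cry1 and Cry2 (4.68% of all promoters), the ROR/REV-ERB string in that of Arntl (2.61%) and the D-box string in those of Per1 and Per3 (3.38%). The cAMP response element was in 0 of the 8 (1.79%). The percentages here are of promoter entries, whereas the clock genes were counted as genes, so the units differ.

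The wider clock network was listed with a further 17 genes. Of these, 16 had an NCoR peak in the window, 12 had SMRT, 14 had HDAC3 and 10 had a shared site, against 72.3%, 43.1%, 52.1% and 39.2% of all genes. An NCoR peak was at the own promoter of 8, against 16.9%. Rora, an activator of Arntl through ROR elements, held the most, with 34 NCoR peaks and 11 shared sites over a long gene and 4.07 NCoR peaks per 100 kb. The gene for REV-ERBα, Nr1d1, held 11 NCoR peaks and 2 shared sites, and its relative Nr1d2 held 4 NCoR peaks and 0 shared sites. No shared site was listed at Dbp, a D-box activator with 2 NCoR peaks, at the kinase genes Csnk1d and Csnk1e, at Btrc, whose product helps degrade PER proteins, or at Rorb, which had 0 peaks of any protein. The median of 4.07 NCoR peaks per 100 kb at the 17 genes was close to the 4.11 at the 10 core genes.

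The tissue was checked through genes that mark cell types. All 6 hepatocyte markers had a shared site in the window, against 39.2% of all genes, and held 7 to 15 NCoR peaks each. A shared site was listed at 0 of 3 liver macrophage, 0 of 3 stellate and 0 of 3 lymphocyte markers. NCoR itself was listed at 2, 3 and 2 of them. Shared sites were present at 2 of 3 endothelial markers and at 1 of 3 genes of tissues outside liver. By nearest TSS, which also takes peaks beyond the window, a shared site belonged to 5 of the 6 hepatocyte markers, against 20.9% of all genes. It belonged to 3 of 3 endothelial markers, 1 of 3 stellate markers and 0 of the others. Sets of 3 genes are too few to show a difference from the shares over all genes. Since whole liver was used, the cells in which a clock gene was bound cannot be told apart, and clock genes are active in most cell types.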

How the data were processed

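ChIP-seq for SMRT, NCoR and HDAC3 was made from fed control livers, 3 libraries each. The authors aligned single-end reads to mm10 with Bowtie, kept uniquely mapped reads, and called peaks with HOMER on the pooled libraries of each protein against input. The authors then kept peaks that passed DESeq2, which they ran across the individual libraries. The deposited lists hold peak positions only (chromosome, start and end), with no score, so depth is unknown. Interval lengths (end minus start) were 228 bp in the NCoR list and 212 bp in the other two.

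From these, peaks were taken by their centres in Python 3.11.15 (numpy 2.4.6, scipy 1.17.1, pysam 0.24.0, matplotlib 3.10.9), with the GENCODE vM21 basic annotation and the GRCm38 sequence. Coordinates are printed as listed and read as counted from 1. Partners had centres within 200 bp. Promoters, nearest TSS and motif strings were as stated in the text, and strings may overlap each other. Shares carry exact (Clopper-Pearson) 95% intervals. With 1 pooled list per protein no test was made. All 10 members are named, with genes nearest to a peak in their windows, and other clock genes with the most or no shared sites. A gene that this rule would name is not reported here. Sequences are those of the shared site nearest each start, or the nearest NCoR peak, and of assigned peaks with an E-box or ROR/REV-ERB string. Members, lists and strings were chosen with earlier results of these data known. Scripts were tested on simulated data. Alternatives were flanks of 25 and 100 kb, partner distances of 100 and 400 bp, overlap by 1 bp, other TSS sets, wider promoters and a 100 bp motif window. Assignment that adds peaks inside the member and a looser ROR/REV-ERB string were added after seeing the data.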

Additional observations from a re-analysis of the deposited data

How the results depend on the processing

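Each result was recomputed under the alternatives that apply to it, which gave 89 values for 29 results, of which 87 stayed within the counting interval of the reported share or within 1.5 times the reported count and 2 did not. NCoR peaks in the windows ranged from 52 to 81 over the flanks, and those assigned to a member ranged from 32 to 51 over flanks and TSS rules. Assigned SMRT peaks ranged from 12 to 18 and assigned HDAC3 peaks from 13 to 23. With promoters taken as 2000 bp on either side of a TSS, 29.0% of the 62 NCoR peaks were at a promoter in place of 14.5%. With A or G at the second base of the ROR/REV-ERB string, a choice made after seeing the data, 22.6% of the peaks held it in place of 9.68%, and 13.2% of all NCoR peaks did. The number of clock genes with a shared site in the window was 7 with centres within 100 bp, when Per2 lost its site, and 9 with a flank of 100 kb. No paired analysis was possible because the lists were called on pooled libraries, with positions that belong to no numbered replicate. For the same reason leaving out each library, and a stricter score threshold, could not be run. A list with fewer peaks can come from fewer reads, a weaker antibody or fewer bound sites, and a missing peak is a position not called, not a position without binding.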

Other observations

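With A or G allowed at the second base, the ROR/REV-ERB string was present in 14 of the 62 NCoR peaks at the core clock genes. Of the 17 shared sites 8 held it, against 14.7% of all shared sites, as did 3 of the 11 NCoR and HDAC3 peaks (15.2% of all), 3 of the 30 NCoR-only peaks (12.4%) and 0 of the 4 NCoR and SMRT peaks (8.48%). The shared sites were those upstream of Npas2, Cry1 and Bhlhe40, downstream of the starts of Clock and Arntl, and in introns of Npas2 and Cry1. This looser string was chosen after its matches could be seen, and the counts are given without a test.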
